A study of Homo sapiens with 26 samples.

Results

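SLC4A5, MCMDC2, MYEF2, MFSD11, PIGF, TMEM79 and PHYKPL are 7 of the 56638 gene rows counted in polysome gradient fractions of SK-MEL-28, an established human melanoma cell line. Each row lies across a neighbouring gene: MTHFD2 for SLC4A5, SNHG6 for MCMDC2, SLC24A5 for MYEF2, SRSF2 for MFSD11, RHOQ for PIGF, SMG5 for TMEM79 and HNRNPAB for PHYKPL. The 7 rows were selected on their fraction counts, which differed between salubrinal and control libraries in edgeR fits, so their fraction values below describe the choice and carry no test. The treated cells had been kept in salubrinal for 72 h and the control cells were untreated; all were of the same line, and all gradient lysates came from cells given cycloheximide at 100 µg/mL for 12 min, which holds ribosomes on mRNA. Each gradient of 5 to 20% sucrose was cut into 14 fractions and pooled into a 40S, a 60S, an 80S and a polysome sample; with replicates numbered 1 to 3 under each treatment this gave 24 fraction files. Input RNA was counted in 1 salubrinal and 1 control sample, with no replicate. The labels' cell-line field runs through a different numbered name in each sample, but SK-MEL-28 stands in all the titles, which were taken as right.

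Salubrinal blocks the phosphatase that resets the translation factor eIF2α, and so turns on the integrated stress response, in which general translation falls and the transcription factor ATF4 raises genes of amino acid and folate metabolism. Many human genes share bases with a neighbour read from the opposite DNA strand, by running into each other at their ends or by starting inside one another. A read from such a shared stretch can be given to either gene or to neither, depending on whether and how the counting uses strand. The libraries came from a kit that keeps strand; the sources used here give no strand setting for the counting.

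Among the overlapping genes, MTHFD2 makes one-carbon units in mitochondria and is a well-known ATF4 target, SNHG6 is a non-coding host of a small nucleolar RNA, and SLC24A5 is an ion exchanger of the pigment organelle. SRSF2 is a splicing factor of the SR family, RHOQ a small GTPase of membrane traffic, SMG5 a factor of nonsense-mediated mRNA decay and HNRNPAB an RNA-binding protein. The 7 changed rows are named for unrelated proteins. SLC4A5 is a sodium bicarbonate cotransporter, MCMDC2 a relative of the replicative helicase that acts in meiosis in mice, MYEF2 a nucleic acid binding protein first described as a myelin gene repressor in mice, and MFSD11 a member of the major facilitator family of transporters. PIGF acts in the synthesis of the lipid anchor of surface proteins, TMEM79 in the skin barrier and PHYKPL in the breakdown of a modified lysine.

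Start-site windows from RefSeq (GRCh38.p14, 250 bases before to 50 after a start) were found for 8 of the 14 genes of the pairs and are shown to make the arrangement of the pairs visible. The first sequence is the 206 bases shared by a window of TMEM79 on the plus strand and a window of SMG5 on the minus strand, chr1:156282776-156282981, given on the plus strand; the annotated starts lie 107 bases apart and the SMG5 window reads the exact reverse complement. The others are the start windows of the first pair, MTHFD2 (chr2:74198365-74198664, plus strand) and SLC4A5 (chr2:74343367-74343666, minus strand), and that of the pigment gene SLC24A5 (chr15:48120740-48121039, plus strand), each on its own strand.
TMEM79 and SMG5, shared: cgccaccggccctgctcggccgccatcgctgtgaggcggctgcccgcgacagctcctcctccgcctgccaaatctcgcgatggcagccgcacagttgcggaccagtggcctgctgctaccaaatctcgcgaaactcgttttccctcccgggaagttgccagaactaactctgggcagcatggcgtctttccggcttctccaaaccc
MTHFD2: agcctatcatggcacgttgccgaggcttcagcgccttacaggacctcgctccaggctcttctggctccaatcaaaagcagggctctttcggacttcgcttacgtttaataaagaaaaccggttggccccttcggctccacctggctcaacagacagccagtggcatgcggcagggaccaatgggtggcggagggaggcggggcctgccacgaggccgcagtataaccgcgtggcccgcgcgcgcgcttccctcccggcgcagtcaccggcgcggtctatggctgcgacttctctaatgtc
SLC4A5: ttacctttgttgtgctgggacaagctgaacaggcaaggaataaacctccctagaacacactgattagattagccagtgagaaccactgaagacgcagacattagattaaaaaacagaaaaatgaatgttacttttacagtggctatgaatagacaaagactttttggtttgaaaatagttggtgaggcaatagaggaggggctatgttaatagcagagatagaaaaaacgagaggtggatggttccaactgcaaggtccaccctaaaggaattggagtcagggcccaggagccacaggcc
SLC24A5: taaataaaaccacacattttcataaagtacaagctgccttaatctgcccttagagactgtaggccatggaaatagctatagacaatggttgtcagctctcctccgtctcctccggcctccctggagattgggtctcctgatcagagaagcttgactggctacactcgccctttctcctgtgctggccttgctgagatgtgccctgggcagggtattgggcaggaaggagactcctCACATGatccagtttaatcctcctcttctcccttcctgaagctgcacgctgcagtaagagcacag
Capitals mark the only match among the 12 windows of these genes to 3 motifs searched on both strands, TGATGNAA (the ATF4 composite element), CATGTG (the core bound by the pigment-cell factor MITF) and CACGTG (an E-box); they read CACATG, the reverse complement of CATGTG. Of 34796 different windows in the table, 3.63% held the first motif, 11.1% the second and 7.21% the third. The match is a description of letters, and with 11.1% of windows holding it, 1 in 12 windows is near the background. For SLC4A5 with MTHFD2, TMEM79 with SMG5 and PHYKPL with HNRNPAB, the strands of both genes are in the table, and in all 3 pairs they are opposite. SLC4A5 and PHYKPL meet their partners at the 3′ ends. TMEM79 and SMG5 overlap at the 5′ ends, over 8585 bases or 90.25% of TMEM79. This overlap reaches another SMG5 start, whose window is chr1:156291467-156291766. From the starts in the first sequence above, TMEM79 and SMG5 run apart, so the bases shared there are not that overlap.

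The fraction files held 6627394 to 12984883 counts, of which 4.72 to 5.79% fell on gene rows and only 1119 to 23722 on rows outside ribosomal RNA (rRNA). Outside rRNA, files of 1 replicate differed from each other by no more than sampling noise (chi-square per degree of freedom 0.963 to 1.04, p from 0.0778 to 0.808, against 1.76 to 11.5 between replicates), so they were added into 3 salubrinal and 3 control libraries and counted once. In control, the 40S file titled replicate 1 fitted library 2, and that titled replicate 2 fitted library 1; each was added where it fitted. The salubrinal libraries 1, 2 and 3 then held 10359, 4776 and 73631 counts outside rRNA and the control libraries 86534, 22866 and 93782, so salubrinal libraries 1 and 2 were the shallowest. The input files held 10245548 gene-row counts with salubrinal and 12068784 without, on mouse-style row names, for which the sources used here give no reference. They differed in make-up: ambiguous reads, those that fit more than 1 gene, were 3.54% of all counts with salubrinal and 9.50% in control, and the top row took 17.8% of gene-row counts with salubrinal (mt-Rnr2) and 56.7% in control (CT010467.1). The part of this in the input ratios was not tested. In the input, 8 melanocyte markers summed to 1396 CPM in the salubrinal sample and 2771 CPM in control (CPM are counts relative to the library's scaled size), with MLANA at 0 in both, while the fibroblast, keratinocyte, leukocyte and endothelial lists lay between 1.06 and 5.99 CPM. Of the 6 melanocyte markers with at least 50 input counts, 4 were lower by 2-fold or more with salubrinal. Their log2 ratios ran from Dct (-2.37) and Sox10 (-1.46) to Tyr (-0.04) and S100b (0.15). The part that depth and the lower sum of melanocyte markers play in the results below was not tested.

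Nearly all fraction counts of the 7 pairs lay on the changed rows. Over the 24 files the changed rows held 3733 counts and the overlapping genes' rows 71, and the changed row was the higher one in 7 of 7 pairs. MTHFD2 and SNHG6 had 0 counts in all 24 files. SMG5 had 1, SRSF2 4, SLC24A5 and HNRNPAB 8 each, and RHOQ 50. At the same loci PIGF held 730 counts, so RHOQ left the lowest share on the changed row, 93.6%. Counts are not scaled to gene length. All 7 changed rows passed the filter on low counts, and of the overlapping genes only RHOQ did. RHOQ stood at 4.52 ± 3.09 CPM in salubrinal libraries and 2.20 ± 0.29 CPM in control libraries (SD, n = 3 each), a log2 fold change of 0.32 that did not pass the threshold.

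**Figure D1:**
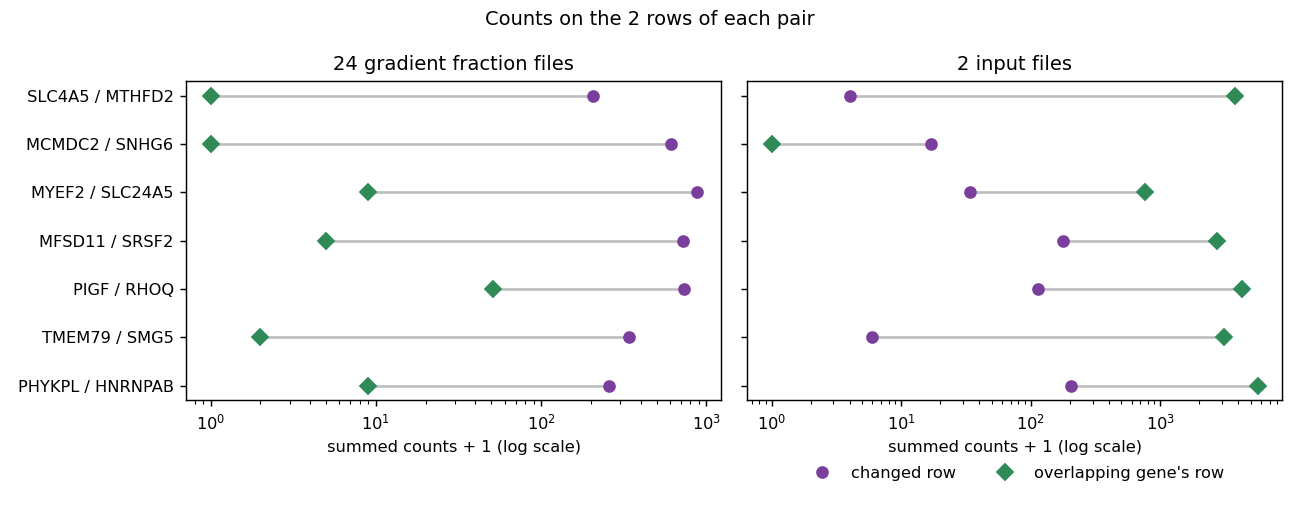
Counts summed over the 24 gradient fraction files (left) and the 2 input files (right) on the changed row (circles) and on the overlapping gene's row (diamonds) of each pair, plus 1, on a log scale. In the fraction files all 7 circles lie right of their diamonds, while in the input 6 of 7 diamonds lie right of their circles.

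The input files showed the reverse. There the overlapping gene's row held more counts than the changed row's own gene in 6 of 7 pairs, with 20362 counts on the overlapping genes and 549 on the changed rows' genes. Mthfd2 had 3770 counts over both samples and Slc4a5 had 3, and Smg5 had 3077 with 5 on Tmem79. Mfsd11, with 176 counts, made up 6.01% of its pair, the highest share among these 6. SNHG6 was the exception: Snhg6 was at 0 in both input samples, where Mcmdc2 had 12 counts with salubrinal and 4 in control. Of 18 snoRNA host genes with an input row 14 were at 0, GAS5 among them, so the 0 is not particular to SNHG6. Since the reference behind the input rows is unknown, a count of 0 there describes the listed row and not the human gene's level. The same limit holds for the order and shares within the pairs.

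The same counts were taken over the other rows tested in the fractions. These rows had passed the low-count filter there, and their overlapping genes were required to reach 50 input counts while their own genes were not, so both orders below are in part set by the filters. Of 304 such rows 280 (92.1%) held more fraction counts than the overlapping gene's row. In the input the overlapping gene had the higher count for 177 of the 233 with an own row (76.0%). Both strands were known for 212, and 208 of these (98.1%) were on opposite strands. The 6 changed rows with a measured overlapping gene had both orders in 6 of 6.

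Fraction levels are given as CPM scaled by trimmed means (TMM), a factor meant to reduce differences in composition between libraries. The factors ran from 0.09 in salubrinal library 2 to 5.19 in control library 3. The CPM and their SD depend on this wide rescaling. A fold change is called where the adjusted p of edgeR's quasi-likelihood test over all tested rows lies under 0.05. In the summed libraries 52 of 913 rows (5.7%) were called, 33 higher (3.61%) and 19 lower (2.08%), and the median absolute log2 fold change over all 913 was 0.40. Of the 7 rows 5 were past this threshold, 2 higher and 3 lower; because the same contrast chose them, nothing is read from that count.

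SLC4A5 held 7, 1 and 103 counts in salubrinal libraries 1, 2 and 3, against 50, 5 and 39 in control libraries 1, 2 and 3. Scaled to CPM, these were 11.3, 4.02 and 19.8 with salubrinal and 7.23, 3.03 and 5.21 in control. Its mean stood at 11.7 ± 7.88 CPM with salubrinal and 5.16 ± 2.10 CPM in control (SD, n = 3 each), a log2 fold change of 1.55 ± 0.71 (SE over libraries). Salubrinal library 3 was the highest and library 2, with a single count, lay inside the control range, so the groups overlapped. MCMDC2 held 38, 16 and 256 counts with salubrinal against 119, 45 and 133 in control. These were 61.1, 64.4 and 49.1 CPM with salubrinal and 17.2, 27.2 and 17.8 CPM in control, with means of 58.2 ± 8.04 CPM and 20.7 ± 5.65 CPM, a log2 fold change of 1.48 ± 0.24. Every salubrinal library of MCMDC2 lay above every control library, as in 5.91% of all tested rows. SLC4A5 and MCMDC2 were the rows higher with salubrinal.

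MYEF2 held 17, 3 and 109 counts with salubrinal against 353, 96 and 300 in control, or 27.3, 12.1 and 20.9 CPM with salubrinal and 51.0, 58.1 and 40.1 CPM in control. Its mean was 20.1 ± 7.67 CPM with salubrinal and 49.7 ± 9.10 CPM in control (SD, n = 3 each), a log2 fold change of -1.22 ± 0.37. MFSD11 held 7, 0 and 99 counts with salubrinal against 249, 68 and 295 in control. These were 11.3, 0 and 19.0 CPM with salubrinal and 36.0, 41.2 and 39.4 CPM in control, with means of 10.1 ± 9.55 CPM and 38.9 ± 2.63 CPM, a log2 fold change of -1.45 ± 1.62. Both rows had every salubrinal library below every control library, as did 18.6% of all tested rows. With 0 counts in salubrinal library 2, the spread of MFSD11 rests on the shallowest library. The SE is taken over log2 CPM of the libraries, apart from edgeR's fit, so it does not decide a call.

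TMEM79 held 3, 0 and 41 counts with salubrinal against 130, 25 and 139 in control. These were 4.83, 0 and 7.86 CPM with salubrinal and 18.8, 15.1 and 18.6 CPM in control, with means of 4.23 ± 3.97 CPM and 17.5 ± 2.05 CPM, a log2 fold change of -1.38 ± 1.23. PHYKPL held 6, 0 and 30 counts with salubrinal against 106, 31 and 84 in control. These were 9.65, 0 and 5.75 CPM with salubrinal and 15.3, 18.8 and 11.2 CPM in control, with means of 5.14 ± 4.86 CPM and 15.1 ± 3.78 CPM, a log2 fold change of -1.26 ± 1.33. Neither row's groups overlapped. PIGF held 24, 5 and 104 counts with salubrinal against 245, 66 and 286 in control. These were 38.6, 20.1 and 19.9 CPM with salubrinal and 35.4, 40.0 and 38.2 CPM in control, with means of 26.2 ± 10.7 CPM and 37.9 ± 2.29 CPM, a log2 fold change of -0.55 ± 0.31. PIGF in salubrinal library 1 lay inside the control range, so its groups overlapped.

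**Figure D2:**
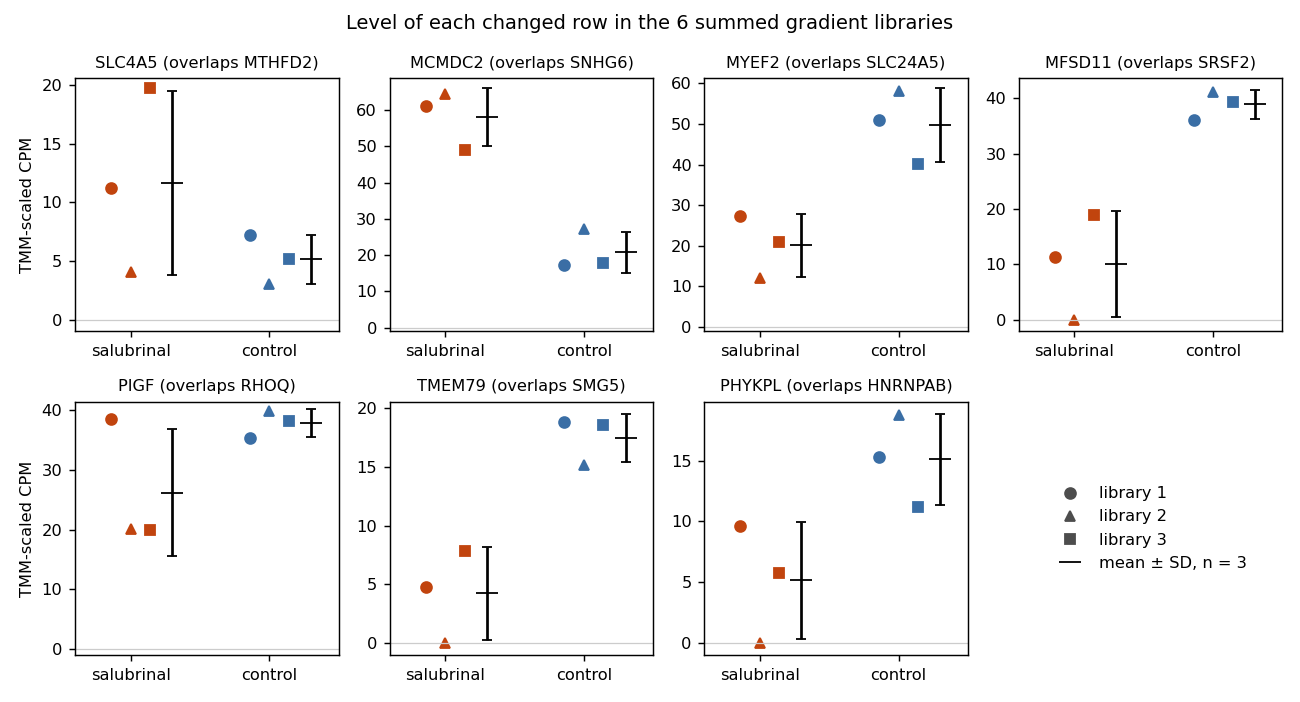
TMM-scaled CPM of each of the 7 rows in the 3 salubrinal (orange, left) and 3 control (blue, right) libraries, with the mean and SD beside the points; each marker shape is a library number and each panel has its own scale from about 0. MCMDC2 is apart upward, MYEF2, MFSD11, TMEM79 and PHYKPL are apart downward, and SLC4A5 and PIGF overlap.

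The deepest libraries gave the same direction without any scaling by TMM. Per 10000 counts outside rRNA, salubrinal library 3 held 14.0 on SLC4A5, against 5.78 and 4.16 in control libraries 1 and 3, a ratio of 2.82 to their mean. MCMDC2 held 34.8 with salubrinal against 13.8 and 14.2 in control, a ratio of 2.49. The other 5 rows were below both deep control libraries, from a ratio of 0.37 for TMEM79 to 0.48 for PIGF. MYEF2, for example, held 14.8 with salubrinal against 40.8 and 32.0 in control. This sets 1 salubrinal library against 2 control libraries.

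Close to the threshold, PHYKPL (-1.26) was inside it and MYEF2 (-1.22) outside it in the summed libraries. In the 40S files alone 4 of the 6 rows tested were called, against 8.0% of 225 rows overall (6.22% higher, 1.78% lower). In 60S 4 of 6 were called, against 9.83% of 234 (6.84% higher, 2.99% lower). In 80S 4 of 5 were called, against 12.7% of 213 (7.51% higher, 5.16% lower). In polysome 0 of 5 were called, against 3.73% of 241 (2.49% higher, 1.24% lower). There 4 of the 5 had an unadjusted edgeR p under 0.05, as did 49 of the 241. The contrast is the one that chose the rows, so nothing is read from these counts either. MCMDC2 and MYEF2 were called in 3 fractions, SLC4A5 and MFSD11 in 2, PIGF in 60S alone (-1.42) and TMEM79 in 80S alone (-1.46). PHYKPL was called in no single fraction, and 40S was the only one in which it was tested (-0.52). As the fractions of a library are alike outside rRNA, these are not separate observations. The calls were not stable when a library was left out, where each fit also had fewer libraries to test with. Without salubrinal library 1, 2 or 3 the number of the 7 rows past edgeR's threshold was 1, 6 and 0. Of all tested rows 38 of 1430, 117 of 1070 and 15 of 1204 were then called. Without control library 1, 2 or 3 it was 1, 2 and 0 of the 7, against 8 of 909, 49 of 1070 and 8 of 1054. Without salubrinal library 3 and without control library 3, 4 and 6 of the 7 had an unadjusted edgeR p under 0.05. So did 147 of 1204 and 105 of 1054 rows. DESeq2 called 2 of the 7, MCMDC2 and MYEF2, against 18 of 10224 rows.

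Whether the rows' counts differ between 40S, 60S, 80S and polysome files of one library is independent of the contrast that chose them, and it was tested with the library as a block over all 24 files (edgeR's quasi-likelihood F test). In that fit 1 of 369 rows (0.271%) was called, the rRNA row RNA5-8S5, and 15 had an unadjusted p under 0.05. None of the 7 rows passed, with adjusted p from 0.629 to 0.987. MYEF2 was the nearest: its 205, 198, 261 and 214 counts in 40S, 60S, 80S and polysome gave 80S over 40S a log2 difference of 0.37, with an unadjusted p of 0.00771 by that F test and an adjusted p of 0.629. MCMDC2 held 159, 151, 148 and 149 counts and SLC4A5 51, 54, 52 and 48 in the same order. PIGF held 180, 204, 166 and 180 counts. Over the 7 rows the fitted differences from 40S ran from -0.27 to 0.37 on the log2 scale. Outside rRNA the files of a library differed by no more than sampling noise, so this test could hardly call such a row. It cannot decide whether these RNAs differed between monosome and polysome fractions, and nothing is concluded on that.

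**Figure D3:**
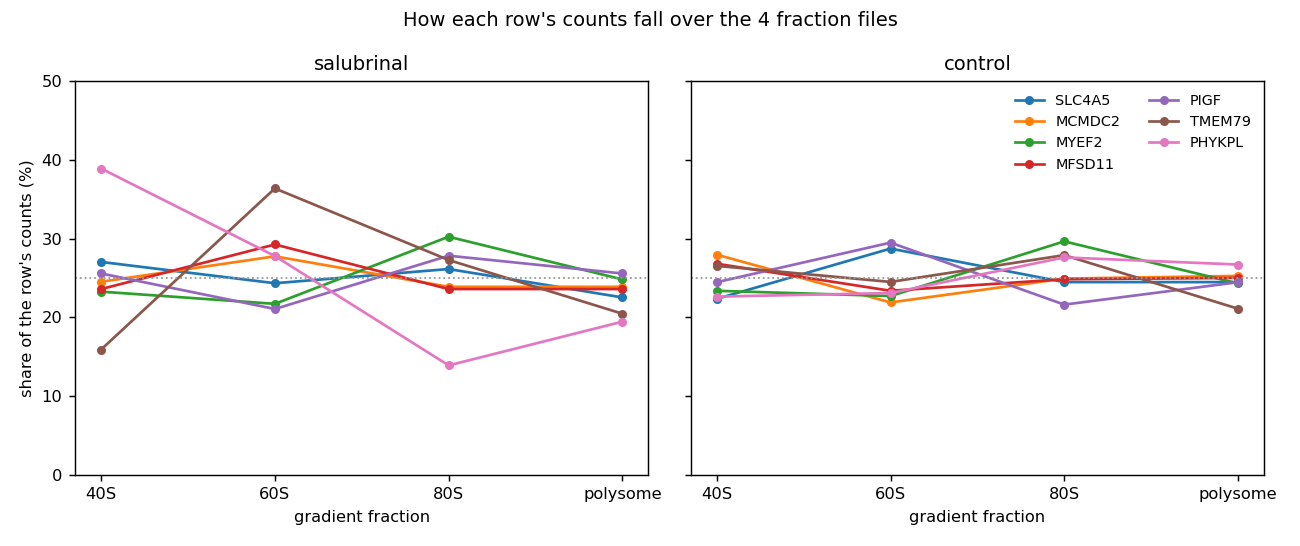
Share of each row's counts, in percent, in the 40S, 60S, 80S and polysome files, for the salubrinal (left) and control (right) libraries, with 25% dotted. The wider lines with salubrinal rest on few counts: PHYKPL ran from 13.9 to 38.9% on 36 counts and TMEM79 from 15.9 to 36.4% on 44.

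The input samples allowed the changed rows to be set beside both genes of a pair. With 1 sample per treatment there is no test; the 95% intervals are exact binomial and hold the counting error alone. Ratios were taken for 10614 input rows that reached 50 counts, of which 292 (2.75%) were higher by 2-fold or more with salubrinal and 403 (3.8%) lower by as much (4830 and 30 when scaled by library totals), with a median absolute log2 ratio of 0.31. Mthfd2 stood at 222 CPM with salubrinal and 71.2 CPM in control, from 3150 and 620 counts, a log2 ratio of 1.64 (1.52 to 1.77). In bulk RNA a difference in cell make-up and one in RNA per cell cannot be told apart. Mthfd2 was the only one of the 6 measured overlapping genes with a 2-fold difference. SLC4A5 stood at 1.55 ± 0.71 in the fractions, and at 0.60 without salubrinal library 3, which held 103 of its salubrinal counts. Without that library the median of all rows was -0.64, against -0.07 with it. The 0.60, given without an error of its own, lies below the counting interval of Mthfd2. Slc4a5 itself had 1 count with salubrinal and 2 in control, too few for a ratio.

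For the 5 rows that were lower in the fractions, which were chosen for differing there, the overlapping gene's input ratio lay nearer to 0. The difference between both was not tested. Each ± below is the SE of the unweighted difference of mean log2 CPM. It is not an interval around edgeR's fold change, beside which it stands, and is widest where salubrinal library 2 held 0 counts. Slc24a5 stood at 29.7 CPM with salubrinal and 39.5 CPM in control, a log2 ratio of -0.41 (-0.62 to -0.20), where MYEF2 stood at -1.22 ± 0.37 in the fractions. Srsf2 stood at 111 CPM with salubrinal and 135 CPM in control, a log2 ratio of -0.27 (-0.38 to -0.16), where MFSD11 stood at -1.45 ± 1.62. Rhoq had a log2 ratio of -0.20 (-0.29 to -0.12), where PIGF stood at -0.55 ± 0.31. Smg5 had one of -0.05 (-0.15 to 0.06), which includes no difference, where TMEM79 stood at -1.38 ± 1.23. Hnrnpab went the other way from PHYKPL, at 260 CPM with salubrinal and 230 CPM in control, a log2 ratio of 0.17 (0.09 to 0.25) beside -1.26 ± 1.33.

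The changed rows' own genes were measured in the input for 3 pairs. Mfsd11 had 99 counts with salubrinal and 77 in control, a log2 ratio of -0.33 (-0.79 to 0.11). Pigf had 74 and 38, a log2 ratio of 0.25 (-0.33 to 0.86), and Phykpl 141 and 63, one of 0.45 (0.02 to 0.91). PIGF and PHYKPL therefore stood on opposite sides of 0 in fractions and in their own input rows, and MFSD11 on the same side; the intervals of Mfsd11 and Pigf include 0. Myef2 (16 with salubrinal and 17 in control), Mcmdc2 (12 and 4) and Tmem79 (4 and 1) were under 50 counts. When library totals replaced TMM for the input, the median over all rows shifted by 0.93, which made all 6 overlapping genes' ratios positive, in place of 2; relative to the shift their sides were those given above, as with TMM.

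**Figure D4:**
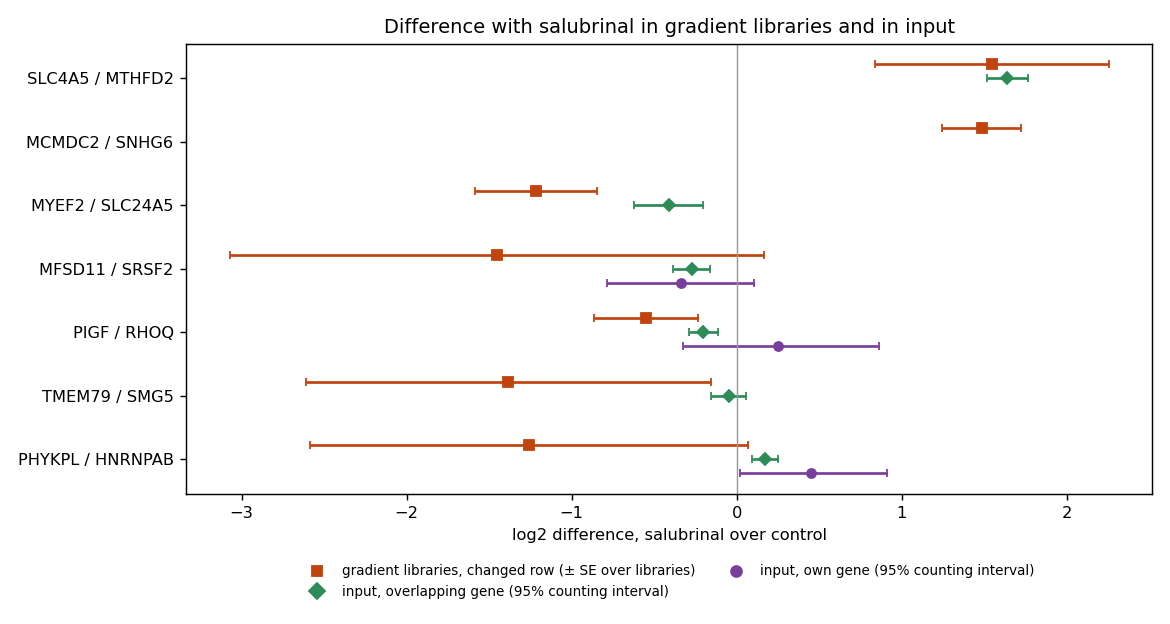
Log2 difference, salubrinal over control, for each pair: the changed row in the 3 against 3 gradient libraries (squares, with the standard error over libraries), and in the input the overlapping gene (diamonds) and the row's own gene (circles) with 95% counting intervals, where they have at least 50 counts. SLC4A5 lies at 1.55 beside Mthfd2 at 1.64. Without salubrinal library 3 SLC4A5 was at 0.60, where the median of all rows was -0.64. MYEF2, MFSD11, TMEM79 and PHYKPL lie below -1.2, the last 3 with wide standard errors, with their overlapping genes between -0.41 and 0.17. The standard errors belong to the unweighted difference of mean log2 CPM, so they are not intervals around the squares.

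Directions in the fractions were then set beside those in the input. Of the 6 rows whose overlapping gene was measured in the input, 5 had its direction and PHYKPL did not. Among the 304 other tested rows 171 (56.2%) had the direction of the overlapping gene, and among the 140 with a measured gene of their own 74 (52.9%) had the direction of that gene. With the input scaled by library totals 1 of the 6 rows had the overlapping gene's direction. SLC4A5 had the highest fold change, and Mthfd2 the highest input ratio of an overlapping gene, among the 310 rows. Smg5 ranked 160 of 310 by input ratio, while TMEM79 had the fifth lowest fold change. The named rows were chosen for their fraction differences, so nothing is read from their ranks by fold change.

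**Figure D5:**
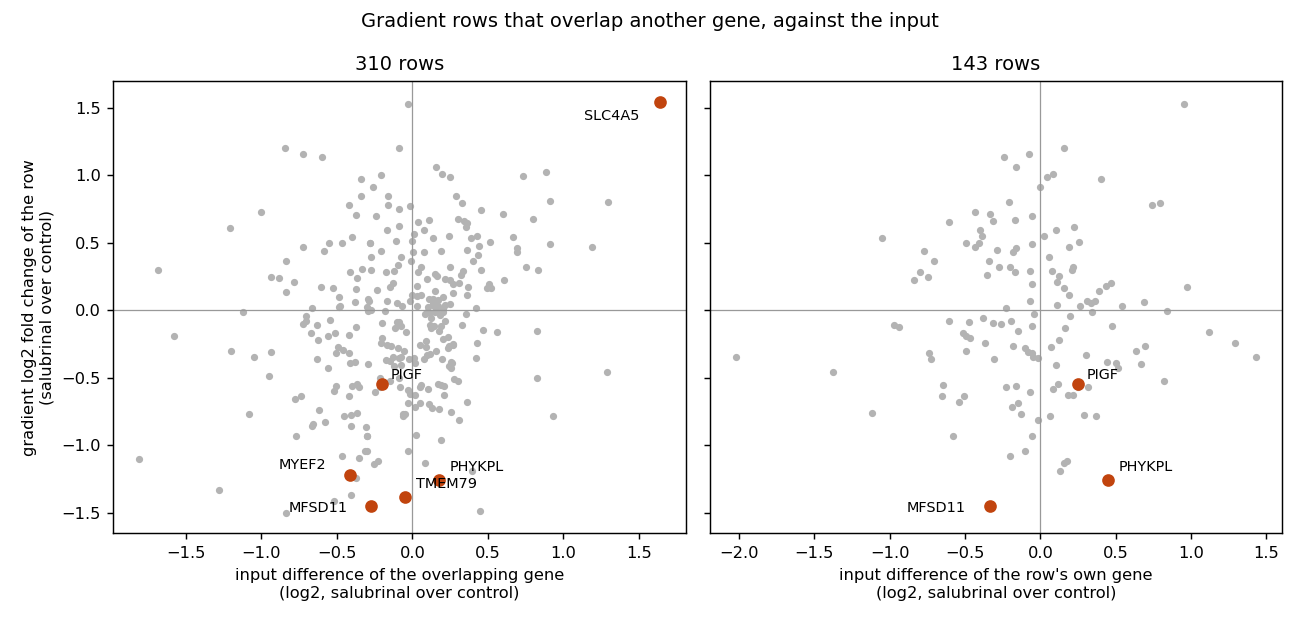
Gradient log2 fold change (vertical axis) of tested rows that overlap another gene, against the input log2 ratio of the overlapping gene (left, 310 rows) and of the row's own gene (right, 143 rows); grey points are other rows and orange points the named ones. SLC4A5 stands alone at the upper right of the left panel, and the other named rows lie below 0 on the vertical axis, between -0.41 and 0.17 on the horizontal one. The named rows were chosen for differing on the vertical axis.

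The overlapping genes' families were described in the input from lists of related genes. MTHFD2 stands in the list of mitochondrial folate and serine synthesis, of which 13 of 15 genes were measured: 5 were higher by 2-fold or more with salubrinal and 0 lower, with a median log2 ratio of 0.34 against 0.02 over all rows. Its highest members were Aldh1l2 (2.21), another mitochondrial folate enzyme, and Mthfd2, and its lowest Tyms (-0.40) and Shmt1 (-0.29). SLC24A5 stands among pigment and melanosome genes, of which 9 of 19 measured were lower by 2-fold or more and 0 higher, with a median of -0.92. Trpm1 (-2.57) and the melanin enzyme gene Dct (-2.37) were lowest there, and the trafficking genes Ap3b1 (0.48) and Hps1 (0.25) highest, so Slc24a5 at -0.41 was nearer to 0 than its list's median. PMEL was the only member of that list tested in the fractions, at a log2 fold change of -1.45, past the threshold.

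The splicing, decay and RNA-binding families around SRSF2, SMG5 and HNRNPAB had medians nearer to 0 in the input. The 20 measured SR splicing factors and their regulators, which hold SRSF2, had a median of -0.17 with 0 at least 2-fold apart, from Srrm2 (-0.79) and Clk2 (-0.47) to Tra2b (0.33) and Clk4 (0.41). The 18 nonsense-mediated decay factors around SMG5 had a median of -0.11, from Dhx34 (-1.22) and Upf1 (-0.58), the central helicase of the pathway, to Rbm8a (0.31) and Nbas (0.95). The 26 hnRNP genes had a median of -0.10 and 0 at least 2-fold apart, between Hnrnpf (-0.71) and Hnrnpll (0.40), with Pcbp1 at -0.66 and Hnrnpk at 0.24. Of snoRNA hosts only Snhg14 (0.22) was measured.

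Among relatives of the changed rows' own genes, the 19 measured genes of anchor synthesis around PIGF had a median of -0.14, with Pigq (-0.99) and Gpaa1 (-0.78) lowest and Pgap1 (0.30) and Pigf (0.25) highest. The 5 measured bicarbonate transporters had a median of -0.15, from Slc4a2 (-0.87) and Slc4a3 (-0.56) to Slc4a4 (0.46) and Slc4a8 (0.51), and SLC4A5 was the only one tested in the fractions. The 10 measured MCM family genes had a median of -0.41, with Mcm10 (-1.19) and Mcm2 (-0.77) lowest and Mcmbp (0.28) and Mcm8 (0.10) highest.

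The rows most like each of the 7 over the 6 libraries were ranked by Pearson r of log2 CPM, as a description over libraries that share depth and treatment. SLC4A5 was most like SH3D19 (r = 0.94) and FAM211A (0.86). MCMDC2 was most like the mitochondrial rows MT-CO3 (0.97) and MT-CO2 (0.95). MYEF2 was most like JMJD8 (0.98) and SNX22 (0.96), and PIGF like GGCX (0.95) and PHC1 (0.92). MFSD11 was most like NUCB1-AS1 and DNAH11 (r = 1.00 each), TMEM79 like TMC3 and DNAH11 (1.00 each) and PHYKPL like MARCH7 (1.00) and OPA1-AS1 (0.99). The last 3 share 0 counts in salubrinal library 2, and among themselves they correlated at 0.96 to 0.99. SLC4A5 and MCMDC2, both higher with salubrinal, correlated at 0.32.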

How the data were processed

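Counts per gene row were deposited by the authors without normalization. A TruSeq stranded kit was used, per the labels' protocols. Build hg19 and the tools DESeq, HTSeq 0.5.3p3, SAMtools 0.1.19.24, STAR and FastQC 0.11.5 are named, with no order, in the submitters' processing notes. Rows naming no gene were left out. Reads shared by overlapping or near-identical genes may lie on either row. Overlap and strand came from RefSeq tables of GRCh38 (33210 of 56638 fraction rows matched), and input rows were matched by symbol without regard to case.

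Fraction files were summed per library; edgeR 4.0.16 in R 4.3.3 was used (filterByExpr, TMM, robust quasi-likelihood, Benjamini-Hochberg 0.05), with DESeq2 1.42.0 as an alternative, and both edgeR fits were tested on simulated counts. The input log2 ratio used TMM and a prior count of 2. SE is over libraries on log2 CPM. It belongs to the unweighted difference of mean log2 CPM and not to edgeR's fitted fold change, beside which it stands. Whether replicates were separate cultures is not stated, so the p-values cover a spread between samples that may be technical. Members, lists and tests were chosen with earlier results of these data known. Named were the 14 genes of the pairs, the 2 highest and 2 lowest measured genes of each family list (1 list is not reported here), and the 2 rows most like each member, without small RNAs, pseudogenes and clone names; mt-Rnr2, CT010467.1, MLANA, GAS5, RNA5-8S5 and PMEL were named after their values were seen. Alternatives covered scaling, filters, rows kept, tool, files summed, replicate block and each replicate left out.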

Additional observations from a re-analysis of the deposited data

How the results depend on the processing

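Each of the 7 rows kept its direction in every alternative that tested it, but the single-fraction fits did not test all of them. Sizes and the number of rows past the threshold were not stable. The median of all rows moved as well. With DESeq2 it was 1.13, beside SLC4A5 at 1.22 and MCMDC2 at 1.34. Without the low-count filter it was -0.86, and PIGF at -0.81 lay above it, while the other rows stayed on their side. Without salubrinal library 3 the log2 fold change was 0.60 for SLC4A5, -2.38 for MFSD11, -2.44 for TMEM79 and -0.31 for PIGF, where the median of all rows was -0.64, and without salubrinal library 1 it was -0.97 for PIGF. Over all 913 rows the 52 calls became 0 on library sizes alone (0 at an unadjusted edgeR p under 0.05). They became 18 with DESeq2 and 4 without the low-count filter (10224 rows each). The stricter filter gave 79 of 869 rows, removing rRNA rows 89 of 749, and joining control 40S files as titled 89 of 856. The 40S, 60S, 80S or polysome files alone gave 18 of 225, 23 of 234, 27 of 213 and 9 of 241. The causes were not tested. With a replicate block there were 24 calls. Leaving out each replicate gave 8 to 117 calls. Without the library under 5000 counts outside rRNA there were 117 calls among 1070 rows. The 3 libraries over 50000 (1 salubrinal, 2 control) were chosen after seeing the data, and their fit gave 150 of 1499 rows. There the lone salubrinal library was assumed to vary like the controls, so nothing is read from these calls. In that fit the log2 fold changes of the 7 rows ran from -1.18 for TMEM79 to 1.74 for SLC4A5. Library sizes alone moved the median of all rows by -1.23; SLC4A5 (0.40) and MCMDC2 (0.19) stayed above it. Same-numbered salubrinal and control libraries deviated together at r = -0.02, 0.17 and 0.31. Libraries 2 and 3 of salubrinal correlated best with their own number, and library 1 with control library 2 (r = 0.04). Correlations this low over so few libraries cannot decide whether the numbers pair them, and nothing is concluded on that. Under the block SLC4A5 was past the threshold. There 6 of the 7 rows had an unadjusted edgeR p under 0.05, as did 135 of all 913 rows.

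In the input, 695 rows were at least 2-fold apart, against 4860 by library totals, 311 at 200 counts and 1395 at 10 counts, the last 2 by the number of rows kept. The fraction test called 1 row, and 0 without rRNA rows, with 40S files as titled and with no replicate block (8, 20 and 7 at an unadjusted edgeR p under 0.05), and 0 to 1 without each replicate; none of these calls was one of the 7. Rows with the direction of the overlapping gene numbered 176 of 310 (56.8%), and from 184 of 317 to 281 of 488 without each replicate (55.3 to 58.8%). MFSD11, TMEM79 and PHYKPL had 0 counts in salubrinal library 2, the shallowest.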
